A study of Mus musculus with 72 samples.

Results

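The long-chain acyl-CoA synthetases Acsl1, Acsl3, Acsl4, Acsl5 and Acsl6 were followed in the blood of mice exposed to neutrons or x-rays. The 5 genes were found by the gene name printed for each probe, and 7 of the 39429 probes on the array carried one of these names. A probe was taken as detected if outlier or dim spots made up under 25% of its spots at days 1 and 7. By this rule 5 of the 7 probes and 4 of the 5 genes were detected, among 16098 genes in all, and Acsl6 was not. The family was chosen by its day 7 levels against the controls, where Acsl1 and Acsl3 had moved apart, so every day 7 value below is a description without a test, and tests were made at days 1 and 3 only.

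Each of the 72 arrays held the globin-reduced RNA of blood taken by cardiac puncture from 1 mouse. The study asked how blood gene expression differs after neutrons and after x-rays. Its methods give male C57BL/6 mice irradiated at 8 to 10 weeks of age, and sham-irradiated controls. Those methods describe days 1 and 7, and the labels add day 3. Day 1 had 5 Control mice, 6 each after Neutron_0.25Gy, Neutron_1Gy and X-ray_1Gy, and 5 after X-ray_4Gy. Day 3 had 5 Control mice, 6 after Neutron_0.25Gy and 5 after X-ray_1Gy. Day 7 had 6 Control mice, 5 after Neutron_0.25Gy, 6 after Neutron_1Gy, 5 after X-ray_1Gy and 6 after X-ray_4Gy. By the methods the neutron beam also gave gamma rays, at a lower dose rate than the neutrons. The x-rays were given at a far higher dose rate. Neutron and x-ray groups therefore differ in dose rate as well as in radiation type. The labels name no other treatment or allele.

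Long-chain acyl-CoA synthetases join a free fatty acid to coenzyme A, the step that commits it to oxidation, storage or membrane lipid. Acsl1 is the main form in heart, fat and liver. Acsl3 sits on the endoplasmic reticulum and on growing lipid droplets. Acsl4 prefers arachidonic acid and loads membranes with the polyunsaturated lipids that ferroptosis needs. Acsl5 is known from intestine and liver, and Acsl6 from brain and red blood cell precursors. Blood RNA comes from a mixture of cells, and in such a mixture fewer cells of a type and less RNA per cell cannot be told apart. The paper reported blood counts in the normal range and no significant change in white cell makeup after irradiation. Those counts were not set against the levels here.

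A level is the log2 background-corrected intensity of the brightest detected probe of a gene minus the median of the detected probes of the same array, so 0 is the array median. Levels of different genes come from different probes and were not set against each other. Calls come from limma (two-sided) and needed both p under 0.001 and a Benjamini-Hochberg FDR under 5%, taken over all genes. In counts over gene lists, a gene that rose or fell was called higher or lower. Genes described as higher or above the control mean are counted by sign alone.

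Acsl1 had 2 detected probes, at chr8:47621232-47621291, which stood for the gene, and at chr8:47619774-47619833, on the plus strand of the mm9 build named in the array files. The other probe of Acsl1 reads the end of the coding sequence, and Acsl5 was measured by a coding probe without coordinates in the files. The sequence shown for Acsl1 is that of this other probe, not of the one that stood for the gene, and the sequence for Acsl5 is that of the probe described.

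Acsl1, probe A_51_P463452: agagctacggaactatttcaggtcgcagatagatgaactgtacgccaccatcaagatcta

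Acsl5, probe A_52_P593037: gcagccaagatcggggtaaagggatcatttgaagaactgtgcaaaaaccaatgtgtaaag

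Acsl3 was read at chr1:78703500-78703559 on the plus strand. Acsl4 was read at chrX:138752591-138752650 on the minus strand.

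The deposited files did not settle which sample each array belongs to. Every level here is that of the scanner file filed under the sample. The authors also deposited a table of log2 values, but only 12 of its 72 columns followed the array of the same sample best, and 21 followed an array of another group. Which of these sources is misassigned cannot be told apart from the labels. Every Control column of day 3 followed an array of another group best. By the scanner files the day 3 contrasts of the table therefore hold no day 3 Control array. With the table's columns grouped as labelled, no member was called in any comparison of day 1 or 3, so each call below holds for the scanner files alone, and the table's value is given beside it. The mean of the 8 detected B cell genes ran from 2.91 to 3.22 in the Control mice of day 7 by the scanner files and from 0.42 to 3.42 by the table. Its SD within groups was larger by the table in 12 of 13 groups, as was that of the T cell list, and that of the hepatocyte list in 6 of 13.

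Other whole-array facts touched some results. No x-ray array shared a scan date with the controls of its day, so date and x-ray exposure cannot be told apart in those comparisons. On the 6 arrays of Neutron_1Gy day 7, 40.2% to 50.3% of spots were well above background, whereas the day 7 Control arrays had 54.3% to 63.9%. Transcripts known from liver were present in these blood samples and varied widely between mice. Of 24 hepatocyte genes, 9 were detected, and Alb, the main plasma protein, was well above background on 55 of the 72 arrays although it missed the detection rule. All 15 hepatocyte genes that missed the rule were well above background on each of the 5 X-ray_4Gy day 1 arrays. The mean level of all 24 hepatocyte genes, detected or not, ran from -5.20 to 7.45 over all mice. The 20 erythroid genes, such as Alas2 of haem synthesis and the membrane protein Slc4a1, were all detected.

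Acsl1 stood highest at day 7 after 1 Gy of neutrons. The day 7 Control mice lay at 4.00, 4.78 and 5.07 (lowest, median and highest of 6), and the Neutron_1Gy mice at 7.11, 8.16 and 8.40. The lowest irradiated mouse therefore lay far above the highest control, and also above every mouse of the other 12 groups. The mean difference was 3.26 (SE 0.28) on the log2 scale, or 9.55-fold. Of all genes with a value on every array of these groups, 34.9% did not overlap between them.

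After the other exposures Acsl1 was also higher at day 7, by less. The 5 mice after 1 Gy of x-rays lay at 6.08, 6.86, 5.97, 6.84 and 6.03, all above the controls, for a difference of 1.72 (SE 0.26), or 3.29-fold, where 7.49% of genes did not overlap. The 6 mice after 4 Gy of x-rays lay at 5.12, 5.39 and 5.99 (lowest, median and highest), just above the highest control, for a difference of 0.80 (SE 0.21), where 16.3% of genes did not overlap. The 5 mice after 0.25 Gy of neutrons lay at 4.59, 5.97, 5.88, 5.48 and 5.61, and 1 of them lay within the control range. Their difference was 0.87 (SE 0.28) where 4.96% of genes did not overlap, and it turned to -0.20 with a normexp background correction and to -0.27 with centring on the spike-in controls. By the table of log2 values it was 0.14 (SE 0.37). The x-ray doses had no settled order, since spike-in centring gave 0.69 after 1 Gy and 1.03 after 4 Gy. Neither x-ray group shared a scan date with these controls, so date and exposure cannot be told apart for either.

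The other Acsl1 probe gave the same order for 1 Gy of neutrons and 1 Gy of x-rays. Its day 7 differences were 3.48 (SE 0.29) after 1 Gy of neutrons, 2.15 (SE 0.22) after 1 Gy of x-rays, 1.93 (SE 0.21) after 4 Gy of x-rays and 0.93 (SE 0.28) after 0.25 Gy of neutrons. The probes thus stood furthest apart after 4 Gy of x-rays. Over the 72 arrays they correlated at r = 0.90, and at 0.87 with the group means removed.

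The size of the Acsl1 difference after 1 Gy of neutrons at day 7 depended on the scale. Centring on the spike-in controls gave 1.16 (SE 0.41), where the median of all genes moved by -2.15. By the table of log2 values it was 1.58 (SE 0.25). The difference was 1.76 (SE 0.53) with the normexp correction and 2.07 (SE 0.20) after quantile normalization. Only 1 of the 6 irradiated arrays was scanned on the date of the controls, and within that date the difference was 2.47.

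The erythroid list was also higher in these groups. Its mean level ran from 4.14 to 5.22 in the Neutron_1Gy day 7 mice, from 3.16 to 4.03 after 1 Gy of x-rays, from 3.00 to 4.08 after 4 Gy of x-rays, from 2.57 to 3.35 after 0.25 Gy of neutrons and from 2.01 to 2.78 in the Control mice. All 20 erythroid genes were above the control mean after 1 Gy of neutrons, with a median difference of 2.79 against -0.05 over all genes. Alas2 was higher by 2.18 (SE 0.17) and Slc4a1 by 2.87 (SE 0.29). These differences rest on array-median centring. With spike-in centring the median of all genes moved by -2.15 in this comparison, and no erythroid difference was taken on that scale. The part of erythroid RNA in the Acsl1 level was not tested. Over the 72 arrays Acsl1 and the erythroid mean had r = 0.65, and 0.09 with the group means removed, over arrays that shared scan dates and slides.

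**Figure D1:**
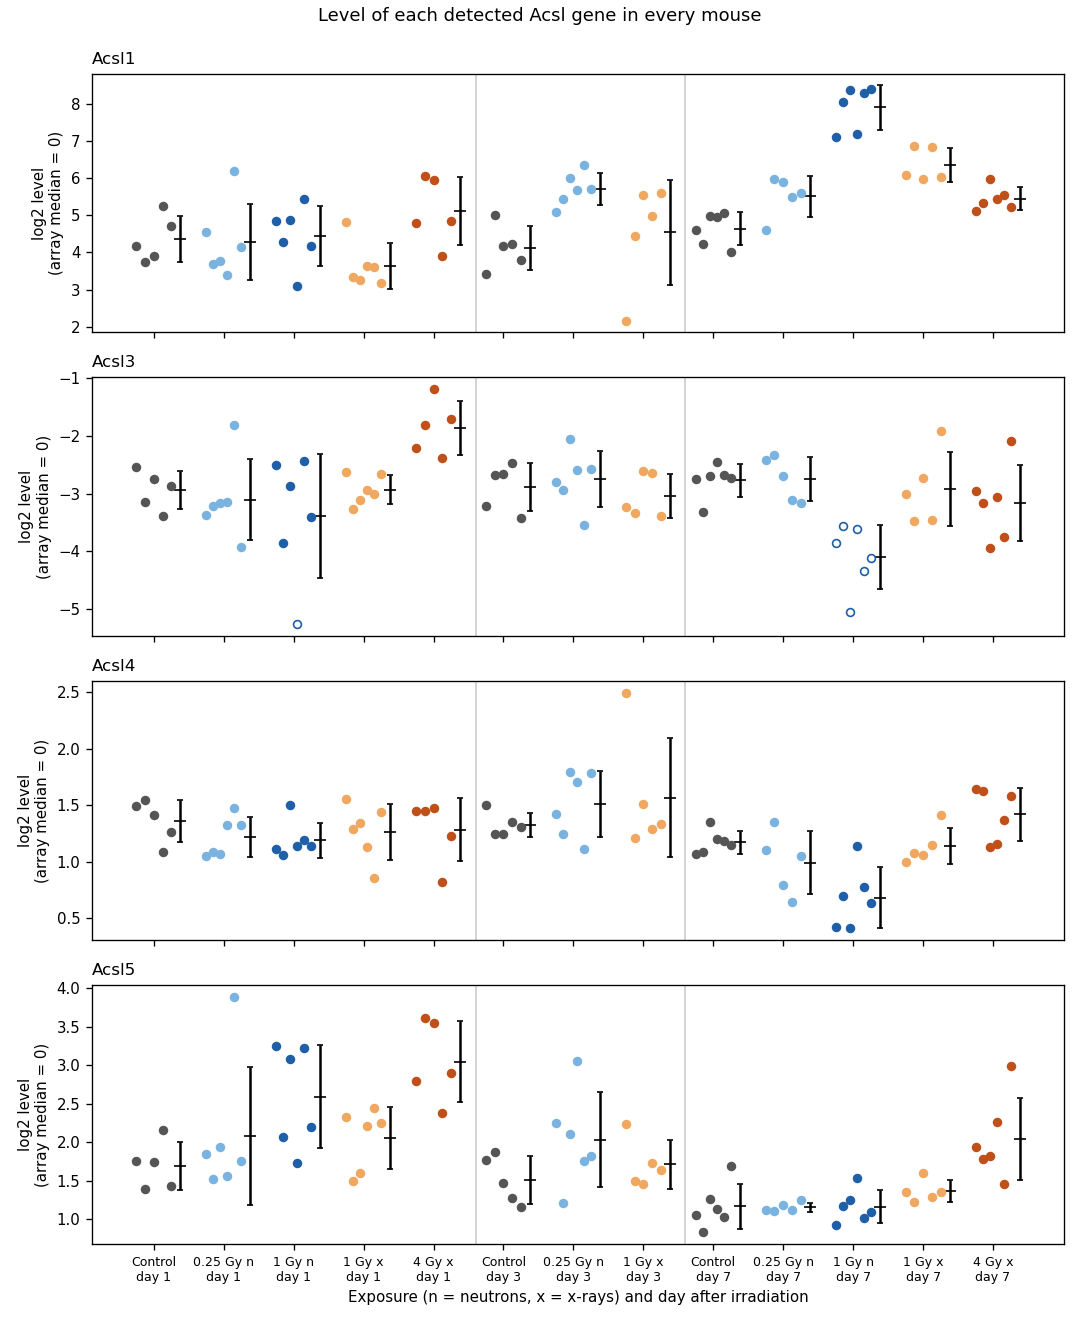
Level of Acsl1, Acsl3, Acsl4 and Acsl5 (log2, array median at 0) in each mouse, by exposure and day. Filled points are arrays on which the probe was well above background, hollow points are not, and the bars beside them give the mean and SD; Acsl1 lay from 7.11 to 8.40 at day 7 after 1 Gy of neutrons, above every other mouse, and all 6 Acsl3 points of that group are hollow.

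At day 3, Acsl1 was the 1 member called after 0.25 Gy of neutrons, the only neutron dose measured on that day. The Control mice lay at 3.43, 5.01, 4.17, 4.22 and 3.80 and the irradiated mice at 5.08, 5.69 and 6.34 (lowest, median and highest of 6). All irradiated mice lay above all controls, the closest pair by little, and the share of all genes without overlap was not taken there. Acsl1 rose by 1.58 (SE 0.29, 95% interval 0.95 to 2.21), or 2.99-fold, with an adjusted p of 0.0393 in limma. Of all genes, 1.53% were called there. The other Acsl1 probe rose by 1.64 (SE 0.29, adjusted p 0.0393 in limma). By the table of log2 values Acsl1 differed by 0.32 (SE 0.62, adjusted p 0.938), without a call, and limma called no gene at all there, with 1091 at an unadjusted p below 0.05. Every Control column of that contrast followed an array of another group best, so the 0.32 and the 1.58 are not like for like.

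This call was close to its threshold. It was lost without replicate 3, 4, 5 or 6 of the irradiated mice (adjusted p 0.0786, 0.0625, 0.0639 and 0.0829) and without replicate 1, 3, 4 or 5 of the controls (0.0939, 0.111, 0.111 and 0.0924), while the difference stayed between 1.41 and 1.80. Within the 1 scan date that both groups shared, 2 irradiated mice stood 1.13 above the 5 controls, and the fit with scan date as a block gave an adjusted p of 0.615. The hepatocyte mean ran from 2.50 to 6.47 in the irradiated mice and from -4.61 to 4.33 in the controls, and with that mean as a covariate the difference was 1.07 (adjusted p 0.521). The erythroid mean ran from 2.16 to 3.61 against 1.72 to 2.25, and 5 of its 20 genes rose.

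After 1 Gy of x-rays at day 3 no member was called by limma or by the random variance test of the methods, none had an unadjusted p below 0.05, and 1.56% of all genes were called. Acsl1 lay at 2.17, 4.45, 5.54, 4.97 and 5.60, with 1 mouse below every control and 2 above every control. Its difference was 0.42 (SE 0.61, 95% interval -0.92 to 1.76), so a rise of the size seen after neutrons was within the interval, and it turned to -0.17 with spike-in centring and to -0.63 by the table of log2 values. It rested on the lowest mouse, and without it, replicate 1, it was 1.01 (SE 0.34, adjusted p 0.109), again without a call. The other Acsl1 probe gave 1.10 (SE 0.34, adjusted p 0.126 in limma). The x-ray arrays of day 3 shared no scan date with the controls. The table value rests on the same Control columns as after neutrons.

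At day 1, Acsl1 was not called against the controls after any exposure. The controls lay at 4.18, 3.75, 3.90, 5.24 and 4.71. Differences were -0.07 (SE 0.47) after 0.25 Gy and 0.09 (SE 0.40) after 1 Gy of neutrons, -0.72 (SE 0.33) after 1 Gy and 0.76 (SE 0.42) after 4 Gy of x-rays. The last interval ran from -0.17 to 1.69. The change of the 0.25 Gy neutron effect from day 1 to day 3 was 1.65 (SE 0.57) for Acsl1, with an adjusted p of 0.682 in limma, where 0% of genes were called and 798 had an unadjusted p below 0.05. For 1 Gy of x-rays it was 1.14 (SE 0.71, adjusted p 0.59), where 1.79% of genes and no member were called.

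In order of group means, Acsl1 was lowest at day 1 after 1 Gy of x-rays, at 3.64 ± 0.61 (SD, n = 6). Next came the Control groups of day 3 (4.12 ± 0.59, n = 5), day 1 (4.36 ± 0.61, n = 5) and day 7 (4.64 ± 0.45, n = 6), with the neutron groups of day 1 and the x-ray group of day 3 among them. Above these came 4 Gy of x-rays at day 1 (5.11 ± 0.90, n = 5), the day 7 exposures and, among them, 0.25 Gy of neutrons at day 3 (5.70 ± 0.44, n = 6). Neighbours in this order overlapped in every case but the highest, where 1 Gy of neutrons at day 7 (7.90 ± 0.59, n = 6) lay clear of 1 Gy of x-rays at day 7 (6.36 ± 0.45, n = 5).

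**Figure D2:**
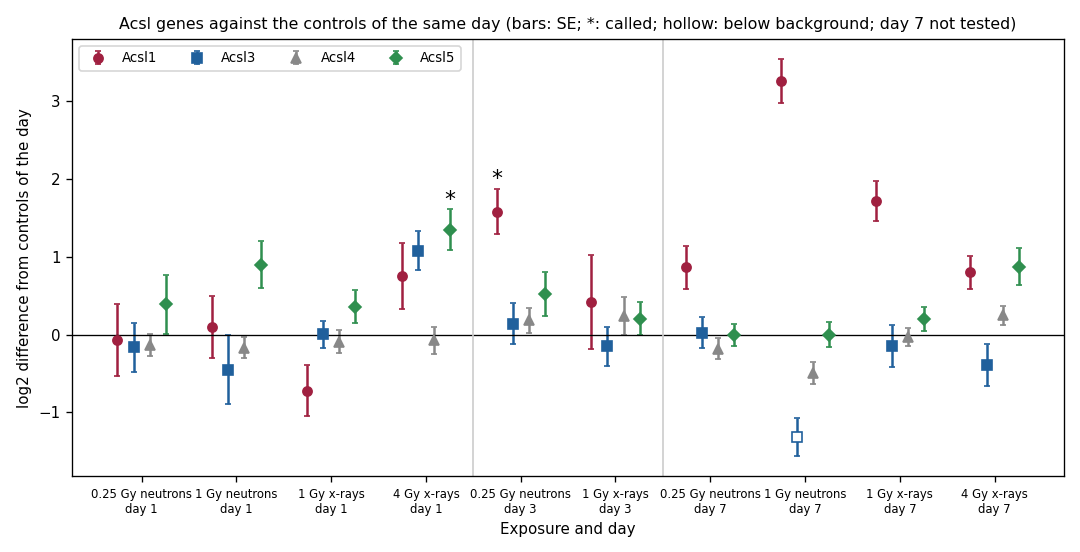
Difference in log2 level (bars are SE) of Acsl1, Acsl3, Acsl4 and Acsl5 between each exposure and the controls of the day. Stars mark the called values, Acsl5 after 4 Gy of x-rays at day 1 (1.35) and Acsl1 after 0.25 Gy of neutrons at day 3 (1.58); day 7 was not tested, the hollow Acsl3 point there is a measured value below background whose sign turns with a normexp correction, and Acsl1 after 0.25 Gy of neutrons at day 7 turns as well with normexp or spike-in centring.

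Acsl3 was low at day 7 after 1 Gy of neutrons, and on none of those 6 arrays was its probe well above background. The Control mice lay at -3.32, -2.71 and -2.46 (lowest, median and highest) and the irradiated mice at -5.05, -3.98 and -3.56. The groups did not overlap, as for 34.9% of all genes. With this background correction the controls were at least 1.84-fold higher, against the lowest well-measured signal of each array. The measured difference of -1.32 (SE 0.24) turned to 0.87 (SE 0.30) with the normexp correction, so neither the bound nor the direction holds across corrections. Of 14 neutrophil genes 11 were detected and all 11 were above the control mean, and the list mean over its 13 genes on the array ran from 2.65 to 3.47 in these mice and from 1.40 to 1.82 in the controls. None of the 8 detected B cell genes was above the control mean, with a median difference of -2.24, and the list mean over its 9 genes on the array ran from 0.35 to 0.87 against 2.24 to 2.55. These list values also rest on array-median centring, where spike-in centring moved the median of all genes by -2.15. The part of these lists and of the erythroid values above in the Acsl3 level was not tested.

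After the other exposures the Acsl3 values of day 7 overlapped with the controls. Differences were 0.02 (SE 0.19) after 0.25 Gy of neutrons, -0.14 (SE 0.27) after 1 Gy and -0.39 (SE 0.27) after 4 Gy of x-rays, the last turning to 0.07 with the normexp correction.

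**Figure D3:**
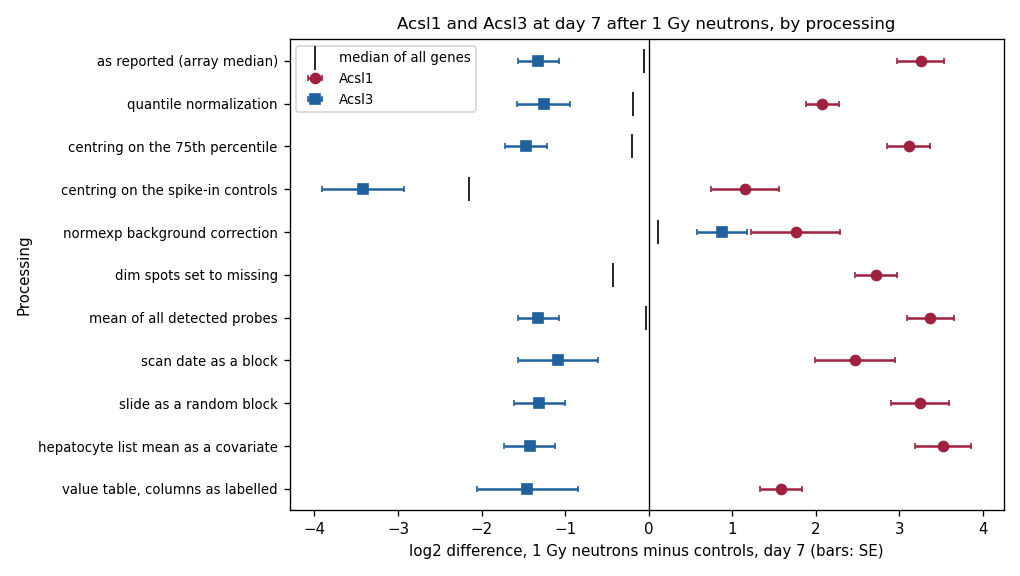
Log2 difference (bars are SE) of Acsl1 and Acsl3 between 1 Gy of neutrons and controls at day 7 under 11 ways of processing, the last of them the authors' table of log2 values, with the median of all genes marked where it was computed. Acsl1 stays above 0, between 1.16 and 3.52, while Acsl3 turns from -1.32 to 0.87 with the normexp correction and has no value once dim spots are set to missing.

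At day 1, Acsl3 was higher after 4 Gy than after 1 Gy of x-rays. The X-ray_1Gy mice lay at -3.26, -2.97 and -2.63 (lowest, median and highest of 6) and the 5 X-ray_4Gy mice at -2.21, -1.81, -1.19, -2.38 and -1.70. All mice of the higher dose lay above all of the lower, but the share of all genes without overlap was not taken there. Acsl3 rose by 1.08 (SE 0.22, 95% interval 0.60 to 1.55), or 2.11-fold, with an adjusted p of 0.00306 in limma, where 16.1% of all genes were called. The call was lost without X-ray_4Gy replicate 2 (1.06, adjusted p 0.00889) or 5 (1.04, adjusted p 0.00704). It was also lost with normexp (0.87, adjusted p 0.153), with centring on the 75th percentile (0.91) or the spike-in controls (0.94), with all 13 groups in 1 fit (1.08), with the hepatocyte covariate (0.73) and with the replicate block (1.13). By the table of log2 values the difference was 0.94 (adjusted p 0.0938), again without a call. Within the date that 1 mouse of 4 Gy shared with 4 of 1 Gy, the difference was 0.59, and there was no call with scan date as a block.

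The hepatocyte, B cell and T cell lists differed between these groups as well. All 9 detected hepatocyte genes were higher after 4 Gy and 1 of them was called, with a median difference of 2.45, and the list mean ran from 5.80 to 7.09 against 1.13 to 5.80. All 8 detected B cell genes fell, with a median of -3.24, and 11 of 12 T cell genes fell, with a median of -2.31. The hepatocyte mean did not overlap between these doses, so the fit with it as a covariate can hardly tell it apart from dose. The part of these lists in the Acsl3 level was not tested.

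Against the controls the same 4 Gy mice stood 1.08 higher (SE 0.25, 95% interval 0.54 to 1.62), with no overlap. Of all genes, 29.4% were called there. The share of all genes without overlap was not taken, here or for the neutron and x-ray comparison that follows. The p of 0.00101 for Acsl3, adjusted 0.00344 in limma, lay just outside the threshold of 0.001. Acsl3 was called without X-ray_4Gy replicate 4 (1.21) or Control replicate 1 (1.18). These groups shared no scan date, so date and exposure cannot be told apart for this difference. After 1 Gy of neutrons Acsl3 stood 1.53 below 4 Gy of x-rays (SE 0.47, adjusted p 0.179 in limma, 95% interval -2.55 to -0.51), with no overlap and 0.0311% of genes called. Setting the slide as a random block gave -1.68 (adjusted p 0.00323) and a call. The lowest Neutron_1Gy mouse, at -5.26, was not well above background. Against the controls Acsl3 differed by -0.45 (SE 0.45) after 1 Gy and -0.17 (SE 0.32) after 0.25 Gy of neutrons, and by 0.00 (SE 0.18) after 1 Gy of x-rays. At day 3 its differences were 0.14 (SE 0.26) after neutrons and -0.15 (SE 0.25) after x-rays.

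Acsl5 was the member called after 4 Gy of x-rays at day 1. The Control mice lay at 1.76, 1.39, 1.74, 2.16 and 1.44, and the irradiated mice at 2.80, 3.61, 3.54, 2.38 and 2.90. The lowest irradiated mouse lay above the highest control, but the share of all genes without overlap was not taken there. The rise was 1.35 (SE 0.26, 95% interval 0.79 to 1.91), or 2.55-fold, with an adjusted p of 0.00119 in limma. This was 1 of 4 members called, beside 29.4% of all genes. The call was kept with each single mouse left out (1.21 to 1.52), and was lost with normexp (0.92, adjusted p 0.036), quantile normalization (1.06), centring on the 75th percentile (1.08) or the spike-in controls (1.26) and with the replicate block (1.35, adjusted p 0.00849). By the table of log2 values the difference was 0.88 (SE 0.28, adjusted p 0.0255 in limma), without a call. The 4 Gy and Control arrays shared no scan date or slide. Date and exposure therefore cannot be told apart for this Acsl5 rise.

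The hepatocyte list moved with it. Its mean level ran from 5.80 to 7.09 in the 4 Gy mice and from -2.15 to 4.96 in the Control mice. Of its 9 detected genes 3 were called higher, Cyp2e1 by 5.41 (SE 1.20). With the hepatocyte mean as a covariate Acsl5 differed by 0.77 (adjusted p 0.16 in limma), and the call was lost. The hepatocyte mean did not overlap between the groups, so this fit can hardly tell it apart from exposure. The SE grew from 0.26 to 0.36, and no conclusion is drawn from the lost call. Over the 72 arrays Acsl5 and the hepatocyte mean had r = 0.78, and 0.58 with group means removed. Other lists were as closely tied to Acsl5, with the opposite sign. With group means removed r was -0.73 for the NK cell, -0.65 for the T cell and -0.59 for the erythroid mean. The hepatocyte list alone had a positive r there. The erythroid mean ran from -0.55 to 0.99 in the 4 Gy mice and from 1.98 to 2.89 in the controls, and 13 of its 20 genes fell while 1 rose. All 8 detected B cell genes fell as well. Of 12 T cell genes 1 rose and 8 fell, of 10 monocyte genes 1 rose and 2 fell, of 11 neutrophil genes 2 rose, of 8 NK cell genes 1 rose, and none of 12 platelet genes was called. The part of these lists in the Acsl5 level was not tested.

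After the other exposures at day 1, mean Acsl5 levels were above the controls without a call. The difference was 0.89 (SE 0.30, adjusted p 0.0323 in limma, unadjusted 0.012) after 1 Gy of neutrons, where 16.3% of genes were called. It was 0.36 (SE 0.21) after 1 Gy of x-rays, where 6.45% were called, and 0.39 (SE 0.38) after 0.25 Gy of neutrons, where 0.00621% were called. The last rested on replicate 5 of the irradiated mice, and without it the difference was 0.03 (SE 0.16, adjusted p 0.944). Between 4 Gy and 1 Gy of x-rays Acsl5 differed by 0.99 (SE 0.26, adjusted p 0.0116) and Acsl1 by 1.48 (SE 0.41, adjusted p 0.0142), both short of p below 0.001. Without X-ray_4Gy replicate 4 both were called, at 1.16 and 1.78, and without X-ray_1Gy replicate 1 Acsl1 was called, at 1.71.

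At day 3 Acsl5 differed by 0.53 (SE 0.28, adjusted p 0.274) after 0.25 Gy of neutrons and by 0.20 (SE 0.21) after 1 Gy of x-rays. At day 7, with array-median centring, it was level with the controls after 1 Gy of neutrons, at 0.00 (SE 0.16), where Acsl1 was highest. Other settings put Acsl5 lower there. It gave -0.46 with normexp, -0.54 with dim spots missing and -0.58 by the table of log2 values. Spike-in centring gave -2.10, where the median of all genes moved by -2.15. Acsl5 stood 0.87 (SE 0.23) above the controls after 4 Gy of x-rays. Its values were 1.46, 1.88 and 2.98 against 0.84, 1.10 and 1.69 (lowest, median and highest of 6 each), which overlapped. The hepatocyte mean of those irradiated mice ran from -5.20 to 5.71 and that of the controls from -4.89 to -2.92.

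In order of group means, Acsl5 ran from 1.16 ± 0.06 (SD, n = 5) at day 7 after 0.25 Gy of neutrons to 3.05 ± 0.52 (n = 5) after 4 Gy of x-rays at day 1. Every pair of neighbours in this order overlapped.

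**Figure D4:**
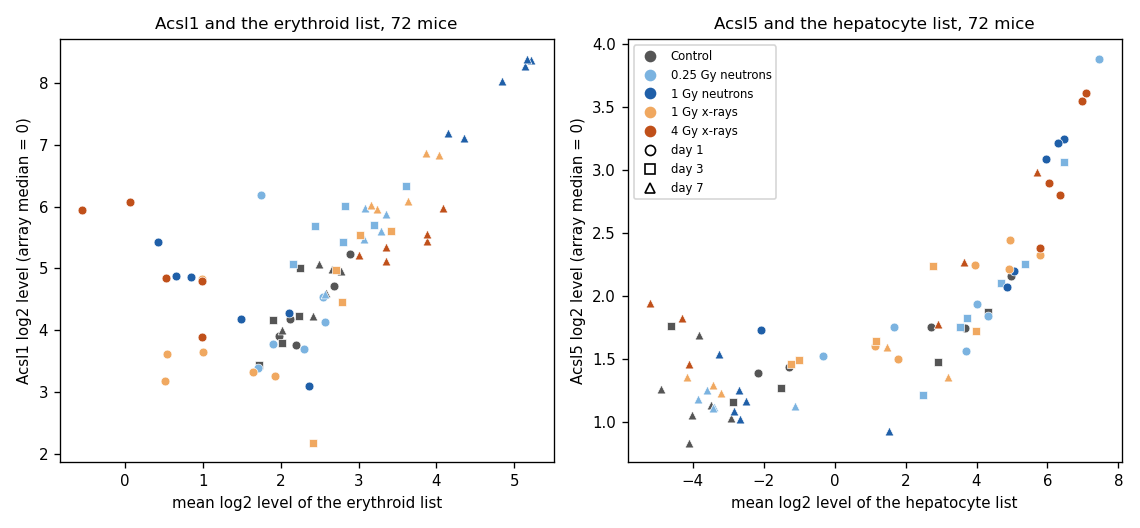
Acsl1 level against the mean level of the 20 erythroid genes (left) and Acsl5 level against the mean of all 24 hepatocyte genes (right), 1 point per mouse, colour for exposure and shape for day, all axes log2. The day 7 mice after 1 Gy of neutrons are highest on both axes at left, and Acsl5 is highest where the hepatocyte mean is highest. Over all mice and days r = 0.65 at left and 0.78 at right. With the group means removed r was 0.09 at left, so the 0.65 describes differences between groups, and 0.58 at right. Lists not drawn were as closely tied to Acsl5, such as the NK cell mean at -0.73 with the group means removed.

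Acsl4 varied least. No comparison called it at day 1 or 3, and it failed the variation filter of the methods. Its 16 mean differences between groups or days ran from -0.49 to 0.33. At day 7 after 1 Gy of neutrons the mice lay at 0.41, 0.67 and 1.14 against 1.07, 1.17 and 1.35 in the controls (lowest, median and highest of 6 each), which overlapped, for a difference of -0.49 (SE 0.14). Some other settings put Acsl4 lower there. The difference was -0.75 with scan date as a block, -0.77 with normexp, -0.93 by the table of log2 values and -1.03 with dim spots missing. Spike-in centring gave -2.59, where the median of all genes moved by -2.15. After 4 Gy of x-rays at day 1, where Acsl5 rose, the Acsl4 difference was -0.07 (SE 0.18, 95% interval -0.46 to 0.31), so a rise as large as that of Acsl5 lay outside its interval.

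Between radiation types at 1 Gy on day 1, none of the 4 members was called, where 9.62% of all genes were. No member had an unadjusted p below 0.05, as 5654 of 16098 genes did. Neutrons stood above x-rays by 0.81 (SE 0.38, 95% interval -0.01 to 1.63) for Acsl1 and by 0.54 (SE 0.30) for Acsl5, and below them by 0.45 for Acsl3 (difference -0.45, SE 0.41). Between the neutron doses of 1 and 0.25 Gy, where 1.62% of genes were called, the Acsl5 difference was 0.51 (SE 0.42) and the Acsl1 difference 0.16 (SE 0.48), and no member was called. The random variance test of the methods called no member in either comparison.

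Neither Acsl6 probe, at chr11:54140634-54140693 and chr11:54174651-54174710, met the detection rule. The first was well above background on 2 of 72 arrays, Control day 7 replicate 2 at -2.33 and X-ray_1Gy day 3 replicate 1 at -3.14, and the other on none. No fold is given for this gene.

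The rest of the pathway after 4 Gy of x-rays at day 1 is counted over lists of genes, beside a median of -0.09 over all genes. Of all 16098 genes 29.4% were called, 2056 higher and 2670 lower, and the shares of several lists lie near that. Of 15 detected genes of the carnitine shuttle and beta-oxidation, 12 rose and none fell, with a median difference of 1.94. Acaa2, the thiolase of the last oxidation step, rose by 2.94 (SE 0.51), and Etfb, which passes its electrons on, by 2.50 (SE 0.40). Of 13 glycerolipid synthesis genes 7 rose, including Agpat2 by 2.27 (SE 0.44) and Agpat3 by 1.88 (SE 0.26), both acyltransferases that use the acyl-CoA. Of 11 uptake and binding genes 5 rose and 1 fell, and the acyl-CoA binding protein Dbi rose by 2.75 (SE 0.33) and the lipid transfer protein Scp2 by 2.49 (SE 0.45). Fabp5, a fatty acid binding protein, rose by 2.07 (SE 0.38).

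Thioesterases release the fatty acid again, and of 9 detected 5 rose and 1 fell, with Acot13 up by 1.52 (SE 0.28) and Acot7 by 1.03 (SE 0.23). Of 11 other acyl-CoA synthetases 4 rose and 1 fell. The faller, Acss1, the mitochondrial acetyl-CoA synthetase, fell by 2.34 (SE 0.25), while Slc27a1, a fatty acid transporter with synthetase activity, differed by 1.90 (SE 0.64, not called). Of 12 genes of fatty acid synthesis and elongation 5 rose and 1 fell, with the elongase Elovl1 up by 1.03 (SE 0.17). Of 12 genes of phospholipid remodelling and peroxidation 3 rose and 2 fell, and of 11 lipid regulators 6 rose, including Rxrg by 2.33 (SE 0.45). The hepatocyte mean of these mice was higher as given for Acsl5, and its part in these counts was not tested.

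At day 3 after 0.25 Gy of neutrons, where Acsl1 rose, 1.53% of all genes were called. There the pathway lists held 1 gene that rose, of uptake and binding, and 1 that fell, of phospholipid remodelling. Counts this small are not read as a trait of the pathway. All 15 beta-oxidation genes had positive differences, with a median of 0.83 against -0.05 over all genes, and none was called. At day 7 after 1 Gy of neutrons, where Acsl1 stood highest, the median of the same 15 genes was -0.42, and 4 of them were above the control mean. There Acot8, a peroxisomal thioesterase, was higher by 2.54 (SE 0.28) and Gpx4, which reduces lipid peroxides, by 1.11 (SE 0.23). Hadhb, a subunit of the mitochondrial trifunctional protein and 1 of those 4 beta-oxidation genes, was higher by 1.00 (SE 0.20). These single genes are not read as a trait of their lists. Scd1, the main desaturase, differed by -0.92 (SE 0.19). These day 7 values rest on array-median centring, and spike-in centring moved the median of all genes there by -2.15.

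The genes whose levels over the 72 arrays were most like Acsl1 were Pyurf (r = 0.95), Mpc2 (0.94), Cox7b (0.92), Slc25a21 (0.92) and Txnrd2 (0.91). For Acsl5 they were Nr2f6, Acadm, Mthfd1, Os9 and Mcfd2, all at 0.95. For Acsl3 the closest was Nanp (0.82), and for Acsl4 Rab14 (0.81), both less like. Between members r ran from -0.43 for Acsl1 and Acsl4 to 0.49 for Acsl3 and Acsl5. These values describe arrays that share scan dates and slides.

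Promoters of the 3 genes with a call are shown as the 250 bases before the transcription start in RefSeq, GRCm38.p6, 5′ to 3′ on the strand of the gene, to set the sequence makeup of Acsl5 beside that of Acsl1 and Acsl3. Capitals mark the GC box GGGCGG and the CCAAT box on either strand. For Acsl1 the upstream one of its 2 promoters is shown.

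Acsl1, chr8:46470787-46471036, plus strand: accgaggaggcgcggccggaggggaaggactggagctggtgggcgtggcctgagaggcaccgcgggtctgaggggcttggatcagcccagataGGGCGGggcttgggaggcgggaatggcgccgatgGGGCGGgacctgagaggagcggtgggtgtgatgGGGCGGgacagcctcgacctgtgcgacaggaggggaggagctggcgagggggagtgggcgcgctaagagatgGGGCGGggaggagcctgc

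Acsl3, chr1:78657575-78657824, plus strand: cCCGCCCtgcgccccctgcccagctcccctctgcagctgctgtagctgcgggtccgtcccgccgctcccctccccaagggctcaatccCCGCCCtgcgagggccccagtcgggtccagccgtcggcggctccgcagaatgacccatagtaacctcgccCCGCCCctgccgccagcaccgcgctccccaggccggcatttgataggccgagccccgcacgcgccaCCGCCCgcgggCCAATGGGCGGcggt

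Acsl5, chr19:55253119-55253368, plus strand: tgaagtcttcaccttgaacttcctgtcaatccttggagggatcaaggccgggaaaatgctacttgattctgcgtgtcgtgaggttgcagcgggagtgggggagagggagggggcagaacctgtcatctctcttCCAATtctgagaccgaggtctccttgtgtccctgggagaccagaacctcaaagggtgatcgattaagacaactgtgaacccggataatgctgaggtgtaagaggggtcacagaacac

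The Acsl1 and Acsl3 windows were 72% and 75.6% GC and held 4 and 5 GC boxes, the last box of Acsl3 adjoining its CCAAT box. The Acsl5 window was 52.8% GC, near the median of 52.4% over 32851 promoters, and held 1 CCAAT box and no GC box. The other Acsl1 promoter, at chr8:46490716-46490965, was 48.4% GC with 2 CCAAT boxes. A GC box was found in 32.7% of all promoters of this length and a CCAAT box in 33.8%. The GATA motif AGATAA (9.99% of promoters), the nuclear receptor motif AGGTCA (14%), the E box CACGTG (6.02%) and the TATA box TATAAA (12.4%), also searched on both strands, had no match in the promoters of Acsl1, Acsl3, Acsl4 or Acsl5.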

How the data were processed

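Blood RNA of 72 mice was labelled with Cy3 and hybridised to 1-colour Agilent arrays. The authors extracted intensity values with Agilent Feature Extraction 12.0.2, which subtracted background. The deposited intensity values, not normalized between arrays, were used here. The deposited value table holds log2 values of the authors. In 12 of its 72 columns the values followed the array of the same sample best, and 21 followed an array of another group, and which source is misassigned cannot be told apart. All levels and groups rest on the scanner file of each sample as deposited. The table was an alternative with its matching columns for 0.25 Gy of neutrons at day 1 (5 against 5 mice), and, added after the data were seen, with all columns as labelled for every comparison.

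Outlier spots were removed, replicate spots averaged, log2 taken and each array centred by subtracting its median over the 19808 detected probes. The brightest detected probe stood for a gene. Of 39429 probes, 28330 were named through RefSeq. Groups came from the labels, and each comparison was fitted with limma 3.58.1 in R 4.3.3 over 16098 genes of 2 groups (4 groups for changes between days). Tests on simulated data with 15339 complete genes recovered 45% of genes changed by 1 and 90% of those changed by 2 (log2) for 0.25 Gy of neutrons at day 3. The number of arrays limits precision.

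The members and gene lists were chosen with earlier results of these data known. Named genes were the members, the 3 brightest detected genes of each pathway list and 4 of each cell type list, and the 5 genes most like each member. The cell type lists were erythroid, hepatocyte, neutrophil, monocyte, B cell, T cell, NK cell and platelet genes. Correlations of random blocks used 4000 genes. In no comparison did every pair of same-numbered mice correlate above 0.1 in their deviations (the lowest pair of 2 comparisons stood at 0.05 and 0.09), so replicate numbers were not taken to pair samples. Alternatives were the background correction, centring, filters, probe choice, test, fit, scan date, slide (added after the data were seen), hepatocyte covariate, replicate block and each replicate left out.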

Additional observations from a re-analysis of the deposited data

Results flagged for a closer look

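Among 65 groups of 4 to 10 mice for the 5 detected probes, 8 held 1 mouse far from the others, where chance would give about 3.25. Replicate 5 of 0.25 Gy of neutrons at day 1 was such a mouse for Acsl5 (3.88, next mouse 1.94), for Acsl3 (-1.81, next -3.13) and for the other Acsl1 probe (3.06, next 0.76), and its hepatocyte list mean of 7.45 was the highest of all mice. Replicate 1 of 1 Gy of x-rays lay apart for Acsl1 at day 1 (4.82, next 3.64), and replicate 1 of that exposure at day 3 for Acsl4 (2.49, next 1.51). Replicate 3 of 1 Gy of neutrons at day 1 lay apart for Acsl4 (1.499, next 1.19). Among the controls, replicate 2 of day 3 lay apart for the other Acsl1 probe (0.92, next -0.07) and replicate 2 of day 7 for Acsl3 (-3.32, next -2.74).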

How the results depend on the processing

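For the members called, 151 of 178 alternative counts stayed as given, and no call changed sign. By the authors' table of log2 values, all columns as labelled, the count was 0 in all 12 comparisons, including the 3 with a count of 1. For 4 Gy of x-rays against controls at day 1 the count of 1 became 0 with normexp, with centring on the 75th percentile or the spike-in controls, with the hepatocyte covariate and with the replicate block, and 2 with dim spots missing, the mean of all probes, and scan date or slide as a random block, and was 1 to 2 with single mice left out. Quantile normalization kept the count at 1 but called Acsl3 (1.27) in place of Acsl5 (1.06, adjusted p 0.00385 in limma). These groups shared no scan date, so the fit with scan date as a random block cannot tell date from exposure. For 4 Gy against 1 Gy of x-rays the count of 1 became 0 with normexp, both centrings, scan date as a block, the hepatocyte covariate and the replicate block, and 3 with slide as a random block, and was 0 to 3 with single mice left out. For 1 Gy of neutrons against 4 Gy of x-rays the count of 0 became 1 with all 13 groups in 1 fit and with slide as a random block. For 0.25 Gy of neutrons at day 3 the count of 1 became 0 with normexp, no detection filter, scan date as a block, slide as a random block, the hepatocyte covariate and the replicate block (adjusted p 0.369), and was 0 to 1 with single mice left out. The replicate block changed no other count of members called.

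At day 7, 148 of 183 alternative differences stayed within 1 SD. With spike-in centring, where the median of all genes moved by -1.15, -2.15, -1.06 and 0.17 after 0.25 and 1 Gy of neutrons and 1 and 4 Gy of x-rays, Acsl1, Acsl3, Acsl4 and Acsl5 gave -0.27, -1.11, -1.31 and -1.14 after 0.25 Gy of neutrons, 1.16, -3.42, -2.59 and -2.10 after 1 Gy of neutrons, and 0.69, -1.17, -1.06 and -0.83 after 1 Gy of x-rays, and Acsl4 gave 0.47 after 4 Gy of x-rays. With normexp they gave -0.20, 0.96, -0.63 and -0.40 after 0.25 Gy and 1.76, 0.87, -0.77 and -0.46 after 1 Gy of neutrons. For 1 Gy of neutrons, Acsl1 gave 2.07 with quantile normalization, and with dim spots missing Acsl1, Acsl4 and Acsl5 gave 2.72, -1.03 and -0.54 and Acsl3 no value. With scan date as a block Acsl1 and Acsl4 gave 2.47 and -0.75. After 4 Gy of x-rays, the mean of both Acsl1 probes gave 1.37, and no scan date fit was possible because date and group cannot be told apart. The arrays of 1 Gy of x-rays also shared no scan date with these controls. By the table of log2 values, Acsl1 gave 0.14 after 0.25 Gy of neutrons, Acsl1, Acsl4 and Acsl5 gave 1.58, -0.93 and -0.58 after 1 Gy of neutrons, Acsl3 and Acsl4 gave -0.59 and -0.27 after 1 Gy of x-rays, and Acsl5 gave 0.42 after 4 Gy of x-rays. The cause of these shifts was not tested.

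Of single genes, Acsl3 after 4 Gy of x-rays at day 1 crossed the threshold under 7 settings. The dim signal of 1 Gy of neutrons at day 7 limits Acsl3 there to a bound, which does not hold with normexp. Counts over all genes moved by over 1.5 times under 81 of 178 alternatives, and with single mice left out ran from 0 to 348 for 0.25 Gy of neutrons at day 3 (247 as given), from 0 to 498 for 1 Gy of x-rays at day 3 (251) and from 14 to 1534 for 1 Gy against 0.25 Gy of neutrons at day 1 (261).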
